A study of Mus musculus with 672 samples.

Results

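Induced pluripotent stem cells (iPSCs) were compared with mouse embryonic fibroblasts (MEFs) over all genes. The aim was to describe what separates the end of reprogramming from its start. The comparison holds 176 of the 567 single cells measured, namely the 90 cells whose columns carry the label of the Xi-Mus iPSC plate and the 86 cells of the Xi-Mus day 0 plate. Full-length cDNA of single cells was sequenced by Smart-seq2. Both groups were female cells of a cross between Musculus (Mus) and Castaneus (Cast) mice, with a GFP reporter on the Mus X chromosome that starts out inactive (Xi-Mus). Day 0 cells were MEFs of passage 1 in fibroblast medium, transduced with lentiviruses for doxycycline-inducible Oct4, Sox2, Klf4 and c-Myc and for the M2rtTA activator, not yet induced, and sorted for absence of GFP. iPSCs came from colonies that were picked and passaged after the inducer had been withdrawn, in stem cell medium with serum and LIF. For iPSCs, the sort of single cells, the number of colonies and the MEF preparation behind the plate were not given in the sources used here. They therefore need not descend from the MEFs of the day 0 plate. The sources also disagree on whether ascorbic acid was present.

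There was 1 plate for each group. Without replicate plates no test across samples was possible, cells are not counted as replicates, and all values describe these plates. The plates were sequenced in different pools, so that group, medium and pool cannot be told apart. Values are reads per 100000 gene-assigned reads of a cell, recovered from the deposited natural log values. The measure of difference was the log2 ratio of mean iPSC over mean day 0 value, each with a pseudocount of 1, which understates differences of low genes. A gene is called 2-fold higher or lower where this ratio is at least 1 or at most -1, as a description of size. Depth was alike: iPSCs had 65727 to 1005101 reads (median 664945) and day 0 cells 60818 to 1070928 (median 603921). The median number of genes with reads was 7657 in iPSCs and 6824 at day 0, or 6482.5 and 5981.5 after thinning every cell to 100000 reads, which left out 2 cells of each group.

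Fibroblasts build and anchor themselves to a collagen-rich matrix and are held in shape by contractile fibres. Pluripotent cells grow as compact epithelial-type colonies, cycle with short gap phases, and keep a network of transcription factors around Oct4, Sox2 and Nanog active. They also erase much of the repression of somatic cells, including that of the inactive X chromosome in female cells and of part of the germline genes. Reprogramming converts the first state into the second.

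Marker genes matched both labels. All 12 fibroblast markers were at least 2-fold lower in iPSCs, and their summed level per cell was 0 to 29.6 (median 1.77) in iPSCs and 504.2 to 4107 (median 1459) at day 0. All 12 pluripotency markers were at least 2-fold higher, with sums of 230.1 to 1515 (median 701.6) in iPSCs and 0 to 2.09 at day 0. No cell of one plate therefore reached the marker range of the other. The GFP reporter, which had been used to sort day 0, was read in 8 of 86 day 0 cells at up to 4.31 and in all 90 iPSCs at 14.6 to 321. Because of that sort its difference is not a result.

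Of 24313 genes with reads in either group, 2333 (9.6%) were at least 2-fold higher in iPSCs and 2146 (8.83%) at least 2-fold lower, and the other 19834 lay between. Among the 5179 genes whose mean reached 5 in either group, 28.8% were higher and 25.1% lower. The counts given below for gene lists stand beside these shares. The median log2 ratio over all genes was 0.01, and 0.27 over the 2568 genes whose mean was 5 or more in both groups. A scaling by median ratios, which removes a shift of 0.29, turned the split into 1706 higher and 2488 lower genes. Reads were found only in iPSCs for 4643 genes and only at day 0 for 1763. The extremes leaned to the lower side: 153 genes had a ratio of -4 or less and 59 one of 4 or more, 23 and 6 genes passed -6 and 6, and 5 genes and 1 gene passed -8 and 8. The set at -8 or less was Acta2, Col1a1, Thbs1, Bgn and Col1a2, and the gene at 8 or more was Dppa5a.

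**Figure D1:**
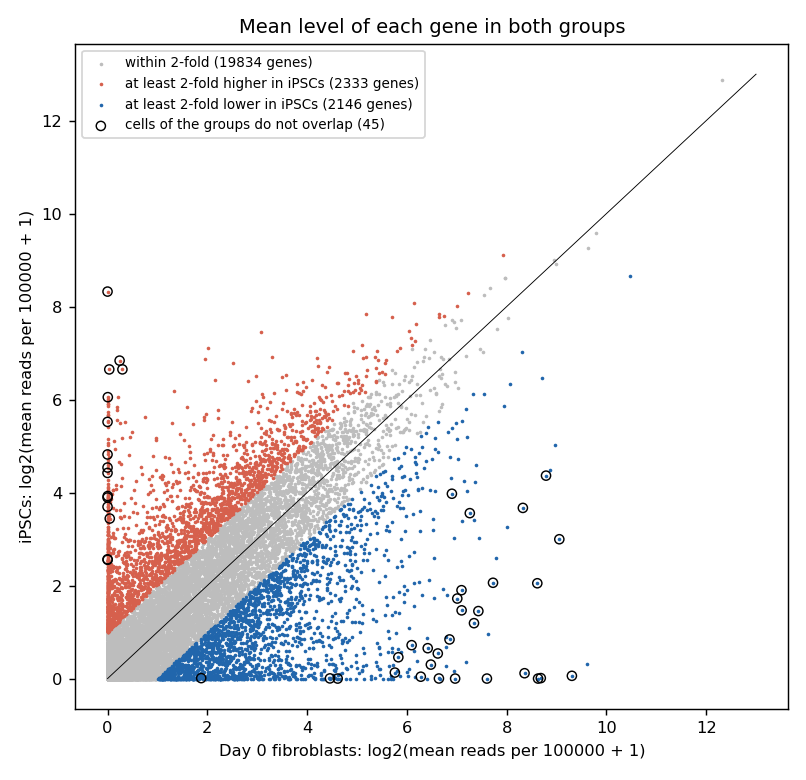
Mean level of each gene at day 0 (x axis) and in iPSCs (y axis), both as log2 of mean reads per 100000 plus 1, with genes at least 2-fold higher (2333) in iPSCs in red, those lower (2146) in blue, and circles around the 45 genes whose cells do not overlap. Most circled genes lie close to one of the axes, at or near 0 in one of the groups.

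The 2-fold lower genes took 40.09% of day 0 reads and 6.06% of iPSC reads, and the 2-fold higher genes 9.62% and 37.44%. The direction of these contrasts follows from the choice of genes, made by the same means. Genes within 2-fold made up 50.3% at day 0 and 56.5% in iPSCs. Of the 100 genes with the most reads in each group, 36 were shared. CT010467.1, annotated as a ribosomal RNA gene on chromosome 17, had a mean of 7484 in iPSCs and 5073 at day 0. It took between 1.06% and 10.6% of the reads of an iPSC (median 7.90%) and between 1.89% and 8.64% at day 0 (median 5.01%), so the ranges overlapped.

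Some genes kept nearly the same mean. Where both groups had a mean of 50 or more, the 10 ratios closest to 0 were those of Bzw1 (-0.01), Gars (0.02), Eef2 (-0.02), Ddx5 (0.03), Mlf2 (-0.04), mt-Co1 (0.05), mt-Nd1 (-0.07), Rps27l (-0.09), Eprs (0.10) and Nars (0.13). Eef2, the translocation factor of protein synthesis, ranged from 35.9 to 188 in iPSCs (median 99.6) and from 29.5 to 200.9 at day 0 (median 98.1). Gars, Eprs and Nars encode enzymes that load tRNAs with amino acids. Under the median-ratio scaling each of these genes moves 0.29 lower or slightly less, which is a matter of the reference chosen.

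The strictest description is whether any cell of one plate overlapped any cell of the other. This held for 15 genes higher in iPSCs (0.0617% of 24313) and 30 lower (0.123%). The higher set was Bex1, Bex4, Dppa4, Dppa5a, Fmr1nb, Gdf3, Gm5229, L1td1, Pou5f1, Sall4, Tdgf1, Tdgf1-ps1, Utf1, Zfp988 and the reporter. The lower set was Anxa2, Anxa5, Bgn, Cald1, Ccnd2, Cd63, Col1a1, Col1a2, Col3a1, Col5a1, Col5a2, Fn1, Gm15772, Gsn, Itgb1, Lgals1, Lmna, Lox, Loxl1, Pcolce, Prrx1, Prss23, S100a4, S100a6, Sparc, Thbs1, Timp2, Tnfrsf12a, Vim and Wls. Reads of Tdgf1 and of its processed copy Tdgf1-ps1 can be split between them, so both values are uncertain, and the same holds for Gm5229 and Gm15772, annotated as processed pseudogenes.

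Dppa5a, whose protein binds RNA in pluripotent cells, ranged from 9.51 to 1176 in iPSCs (median 283.1) and had no read at day 0. Gdf3, a TGF-beta family ligand, ranged from 5.43 to 102.4 (median 46.2) and Sall4, a zinc finger factor of the pluripotency network, from 2.39 to 60.2 (median 19). Both were without reads at day 0. Bex1, on the X chromosome, ran from 16.9 to 287.6 (median 109) and at day 0 was read in 5 cells at up to 11.3. Fmr1nb, an X-linked gene named for its neighbour Fmr1, spanned 7.98 to 98.5 in iPSCs (median 24.3) with no read at day 0, and was at least 4597-fold higher against a floor of 3 reads over the group. Dppa4 spanned 3.21 to 39 (median 12.7), and L1td1, an RNA-binding protein gene derived from a retrotransposon, 1.43 to 47.7 (median 19.3). Every iPSC thus held reads of these genes at a level no fibroblast reached.

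Pou5f1, which encodes Oct4, lay at 1.13 to 35.1 in iPSCs (median 14.1) and was read in 1 of 86 day 0 cells, at 0.221. The files do not separate transgene from endogenous reads of the 4 reprogramming factors. Utf1, a chromatin factor gene next to the Oct4 network, spanned 14.8 to 289.1 (median 93.4) against at most 2.09, in 1 day 0 cell. Tdgf1, the Nodal co-receptor, spanned 3.33 to 159.2 against at most 0.3075. Other genes among the highest ratios left a few iPSCs without reads: Zfp42, the zinc finger factor Rex1, was read in 88 iPSCs (median 56.6) and Trap1a, an X-linked tumour antigen gene, also in 88 (median 57.1), with no read of either at day 0.

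On the lower side, Col1a1, the main chain of type I collagen, ranged from 166.7 to 1894 at day 0 (median 580.5) and reached 1.43 in the highest of the 4 iPSCs with reads. Bgn, the matrix proteoglycan biglycan, spanned 54.6 to 871.4 (median 372.9), and Lox, the enzyme that crosslinks collagen, 20.9 to 592.9 (median 174.3). Neither had a read in any of 90 iPSCs, an outcome that still allows reads in up to 3.33% of such cells. Col5a2 (15.6 to 333.4 at day 0) and the limb and mesenchyme factor gene Prrx1 (3.69 to 104.1) were likewise without a read, at least 24118-fold and 4559-fold lower. These genes had reads in every fibroblast and in no iPSC.

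Other genes of the lower set kept a low level in iPSCs. Lgals1, which encodes the glycan-binding protein galectin-1, ranged from 291.1 to 2248 at day 0 and from 0 to 52.4 in iPSCs, 75 of which had reads. Vim, the intermediate filament of mesenchymal cells, spanned 152.8 to 779.3 and 0 to 27.6, with reads in 37 iPSCs. Cd63, a tetraspanin of late endosomes, was read in all 90 iPSCs at 2.51 to 42.1, below the 50.6 to 450.2 of day 0. Itgb1, the shared beta subunit of matrix-binding integrins, lay at 0 to 29.5 against 39.9 to 257.9.

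**Figure D2:**
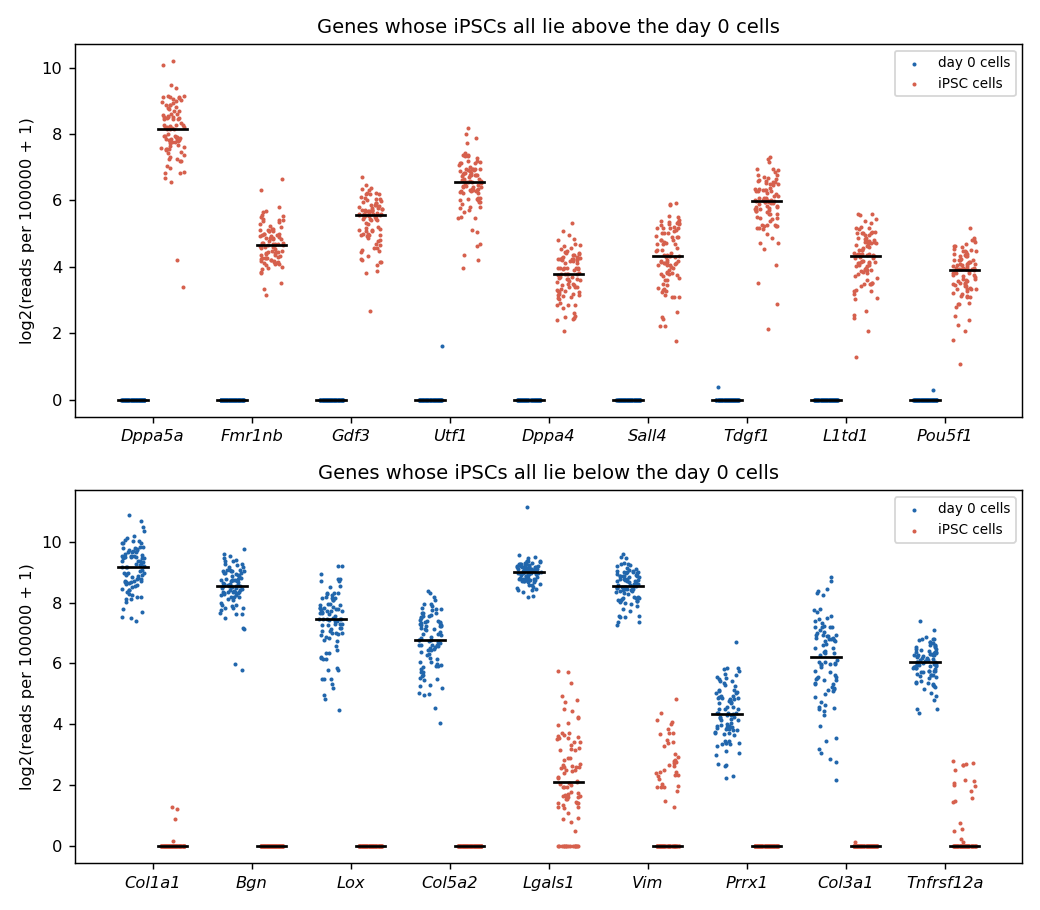
Value of every cell (points) for genes with the widest gap between plates, as log2 of reads per 100000 plus 1, for day 0 cells (blue) and iPSCs (red), with bars at the medians. Dppa5a, Gdf3 and Sall4 sit at 0 in all 86 day 0 cells, and Bgn, Lox and Col5a2 at 0 in all 90 iPSCs, while Lgals1 and Vim keep low values in part of the iPSCs.

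The matrix programme was lower across its parts. Of 14 fibrillar and associated collagen genes 13 were at least 2-fold lower (median log2 ratio -5.09, against 0.01 over all genes), and Col14a1 lay at -0.29. Pairs of values without further words are means in iPSCs and at day 0, here 0.0012 and 98.95 for Col3a1, 0.374 and 55.9 for Col5a1, and 0 and 48.2 for Col12a1. The summed level of the 14 genes was 433.7 to 4218 per day 0 cell and 0 to 11.4 per iPSC. All 17 enzymes and chaperones that modify, cut or crosslink collagen were lower (median -2.95). The genes Crtap (10.5 and 25.8) and Plod2 (3.81 and 8.94), both of collagen hydroxylation, stood apart by less, while Loxl1 was at 0.232 and 88.3 and the procollagen enhancer gene Pcolce at 2.73 and 135.8.

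Of 24 secreted matrix glycoproteins and proteoglycans 22 were lower (median -4.56). Thbs1, an adhesive glycoprotein gene, ranged from 3.52 to 1408 at day 0 (median 316) and was read in 2 iPSCs at up to 0.523. Fn1 and Sparc, fibronectin and a collagen-binding glycoprotein, were read in 85 of 90 iPSCs each, at medians of 10.8 and 18.4 against 280.6 and 425.5. The genes within 2-fold were Fbln1 (8.0 in iPSCs and 7.86 at day 0) and Mfap5 (2.89 and 1.67), the microfibril gene that had reads in 55 iPSCs and 23 fibroblasts. The family of fibulins therefore did not move as one, since Fbln5 (0.113 and 121.4) and Fbln2 (0.203 and 109.2) were among the widest ratios.

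Basement membrane genes gave a mixed picture: 7 of 12 were lower, 1 higher and 4 within 2-fold (median -1.81). The type IV collagen genes Col4a1 (0.429 in iPSCs, 24.1 at day 0) and Col4a2 (0.23 and 16.5) were lower, as was Nid1 (1.56 and 21.7), which links laminin to collagen. Its relative Nid2 went the other way, with means of 15.8 and 5.37 (ratio 1.40) and reads in 86 iPSCs and 49 fibroblasts. Lama5 (7.49 and 5.98), the alpha chain of laminin-511, and Agrn (3.56 and 3.17) were within 2-fold.

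Matrix proteases and their inhibitors were lower for 16 of 17 (median -3.83), such as Timp2 (0.0933 in iPSCs, 53.2 at day 0), Mmp14 (0.587 and 51) and Mmp2 (0.835 and 49.2). Timp1 (8.16 and 91.05) kept reads in 84 iPSCs. Of 15 contractile genes 13 were lower (median -3.94). Acta2, smooth muscle actin, varied from 0 to 4617 among fibroblasts (median 567.5) and was read in 7 iPSCs at up to 10.3, and its relative Actg2 in no iPSC (30.6 at day 0, where 1 cell held 52.2% of the summed level). Tpm1, a tropomyosin gene, was read in 89 of 90 iPSCs at a median of 15.0 and in all fibroblasts at a median of 433, and 1 or more iPSCs (highest 105.6) passed the lowest fibroblast (86.3).

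Focal adhesion and stress fibre genes were lower for 17 of 19 (median -2.43), with Lpp at 1.97 and 69.2, Ahnak at 1.71 and 53.1 and Zyx, a tension-sensitive adaptor gene, at 3.15 and 69.7. Actn4 (44.6 and 97.2) and Pdlim7 (14.5 and 44.1) stood lower by less. Of 16 integrin subunits only 6 were lower and 10 within 2-fold (median -0.84). The 6 included Itga5 (1.42 and 39.1), the fibronectin receptor chain, and Itga11 (0.0167 and 12.5), a collagen receptor chain, while the laminin receptor chain Itga6 was at 2.64 and 1.51. All 6 caveola genes were lower (median -4.47): Cavin2 had no read in iPSCs against 19.3, Cavin1 lay at 0.612 and 109, Ehd2 at 0.155 and 27.01, and Cav1 was read in 85 fibroblasts at a median of 107.2 and in 1 iPSC. Of 17 S100, annexin and galectin genes 14 were lower (median -2.31), led by Anxa1 (0.941 and 197.5), S100a6 (1.28 and 161.7) and Lgals1, while S100a10 (29 and 48.8), Anxa7 (14.4 and 18.6) and Lgals9 (3.11 and 6.21) lay within 2-fold.

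Regulators of mesenchymal identity were lower as a group. Of 25 mesenchymal transcription factors 22 were at least 2-fold lower (median -2.10). Twist2 (2.56 at day 0), Osr1 (5.03), Foxc2 (3.79) and Prrx1 (23.5) had no read in any iPSC, Nfix (0.14 and 11.7) and Tcf4 (0.769 and 17.97) were low, whereas Foxp1 (5.17 and 14.6) and Tcf12 (3.64 and 10.1) were read in 58 and 54 iPSCs. The Hox genes, which record position along the body axis, were low at day 0 as well: 4 of 23 were lower and 19 within 2-fold (median -0.50), yet 16 had no read in any iPSC. Hoxa10 was read in 42 of 86 fibroblasts at up to 33.4, Hoxa9 in 25 and Hoxc6 in 24, and none of these was read in an iPSC, while Hoxa7 kept a mean of 0.0809 against 1.98. Ratios with a pseudocount of 1 are small for such genes by construction.

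Signalling genes of fibroblasts followed. Of 10 AP-1 factors, immediate targets of growth factor signals, 8 were lower (median -1.74), with Fosl1 at 0.131 and 22.6, Junb at 3.63 and 46.3 and Fosl2 at 0.0802 and 7.20. Of 15 YAP and TEAD targets and partners 8 were lower (median -1.32), with Ctgf at 5.03 and 218, Cyr61 at 8.56 and 258 and Axl at 0.0482 and 43. Ajuba, a LIM protein gene, was higher (21.2 and 9.26), and the effector gene Yap1 itself was at 1.68 and 1.49. Of 16 TGF-beta and activin pathway genes 9 were lower (median -1.08), among them Inhba, an activin subunit gene with no read in iPSCs and 38 at day 0, Tgfb3 (0.0014 and 16.8) and the receptor gene Tgfbr2 (0.0877 and 18.4). The transducers Smad2 (5.96 and 5.51) and Smad4 (1.90 and 3.07) were within 2-fold.

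Of 21 growth factor receptors and ligands 15 were lower (median -2.18), with Pdgfrb (11.4) and Csf1 (19) at no read in iPSCs. Igfbp2 was higher, at 69.1 in all 90 iPSCs and 13.8 in 22 fibroblasts, while its relatives Igfbp3, Igfbp4, Igfbp5, Igfbp6 and Igfbp7 were lower (ratios -2.18 to -5.84). Of 15 chemokines and cytokines 10 were lower (median -2.46). Il1rl1, the receptor of interleukin 33, was not read in iPSCs and had a mean of 84 in 62 fibroblasts, and Cxcl12 was at 0.230 and 52.0. Ccl2, which attracts monocytes, was at 0.603 and 42.5, the former from 1 iPSC at 54.3 and 0 without it. Ccl9 was higher, at 2.70 in 46 iPSCs and 0.115 in 4 fibroblasts.

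Of 18 antigen presentation and interferon genes 4 were higher, 5 lower and 9 within 2-fold (median -0.23). Both shares were near those of genes whose mean reached 5 in either group (28.8% higher, 25.1% lower). B2m, the light chain of MHC class I, was at 2.30 and 92.4. Its highest iPSC, at 96.1, was the cell with macrophage reads described further on, and without that cell the iPSC mean was 1.25 and no iPSC reached the lowest fibroblast (36.97). Ifitm1, an interferon-induced membrane protein gene that stem cells also use, ranged from 0 to 443.1 in iPSCs (median 41.8) and from 0 to 3.29 at day 0, while its neighbours Ifitm2 (15.0 and 9.58) and Ifitm3 (67 and 53.9) were within 2-fold. Irf1 (11 and 1.84) and the immunoproteasome gene Psmb10 (11.4 and 3.92) were also higher.

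Of 18 cell cycle inhibitors and p53 targets 7 were lower, 2 higher and 9 within 2-fold (median -0.49). Cdkn1a, the p53 target p21, was at 19 in iPSCs and 117.5 at day 0, Cdkn2b, a gene for an inhibitor of G1 kinases, at 0.721 and 26.97, and Plk2 at 3.32 and 85.6. Sesn2, a stress gene, was higher (7.83 and 3.14). The p53 gene itself, Trp53, had the opposite sign, with 39.5 to 202.9 in iPSCs (median 118.6) and 7.83 to 88 at day 0 (median 31). Lysosome genes were lower for 14 of 21 (median -1.55), with Lamp2 at 8.08 and 76.1 and Ctsl at 25.4 and 130. Of 20 secretory pathway genes 12 were lower (median -1.36). Kdelr3 (0.465 and 34.3), Sec24d (1.52 and 26.9) and Tmed3 (1.12 and 22.6) were far apart, and the chaperone genes Canx (41.3 and 55.8) and Pdia6 (82.2 and 123.5) were close. Of 18 primary cilium genes 2 were lower, 2 higher and 14 within 2-fold (median -0.48), the transport genes Ift57 (1.11 and 5.16) and Ift20 (3.94 and 13) on the lower and Bbs2 (2.14 and 0.417) and Ift52 (14.8 and 6.199) on the higher side.

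**Figure D3:**
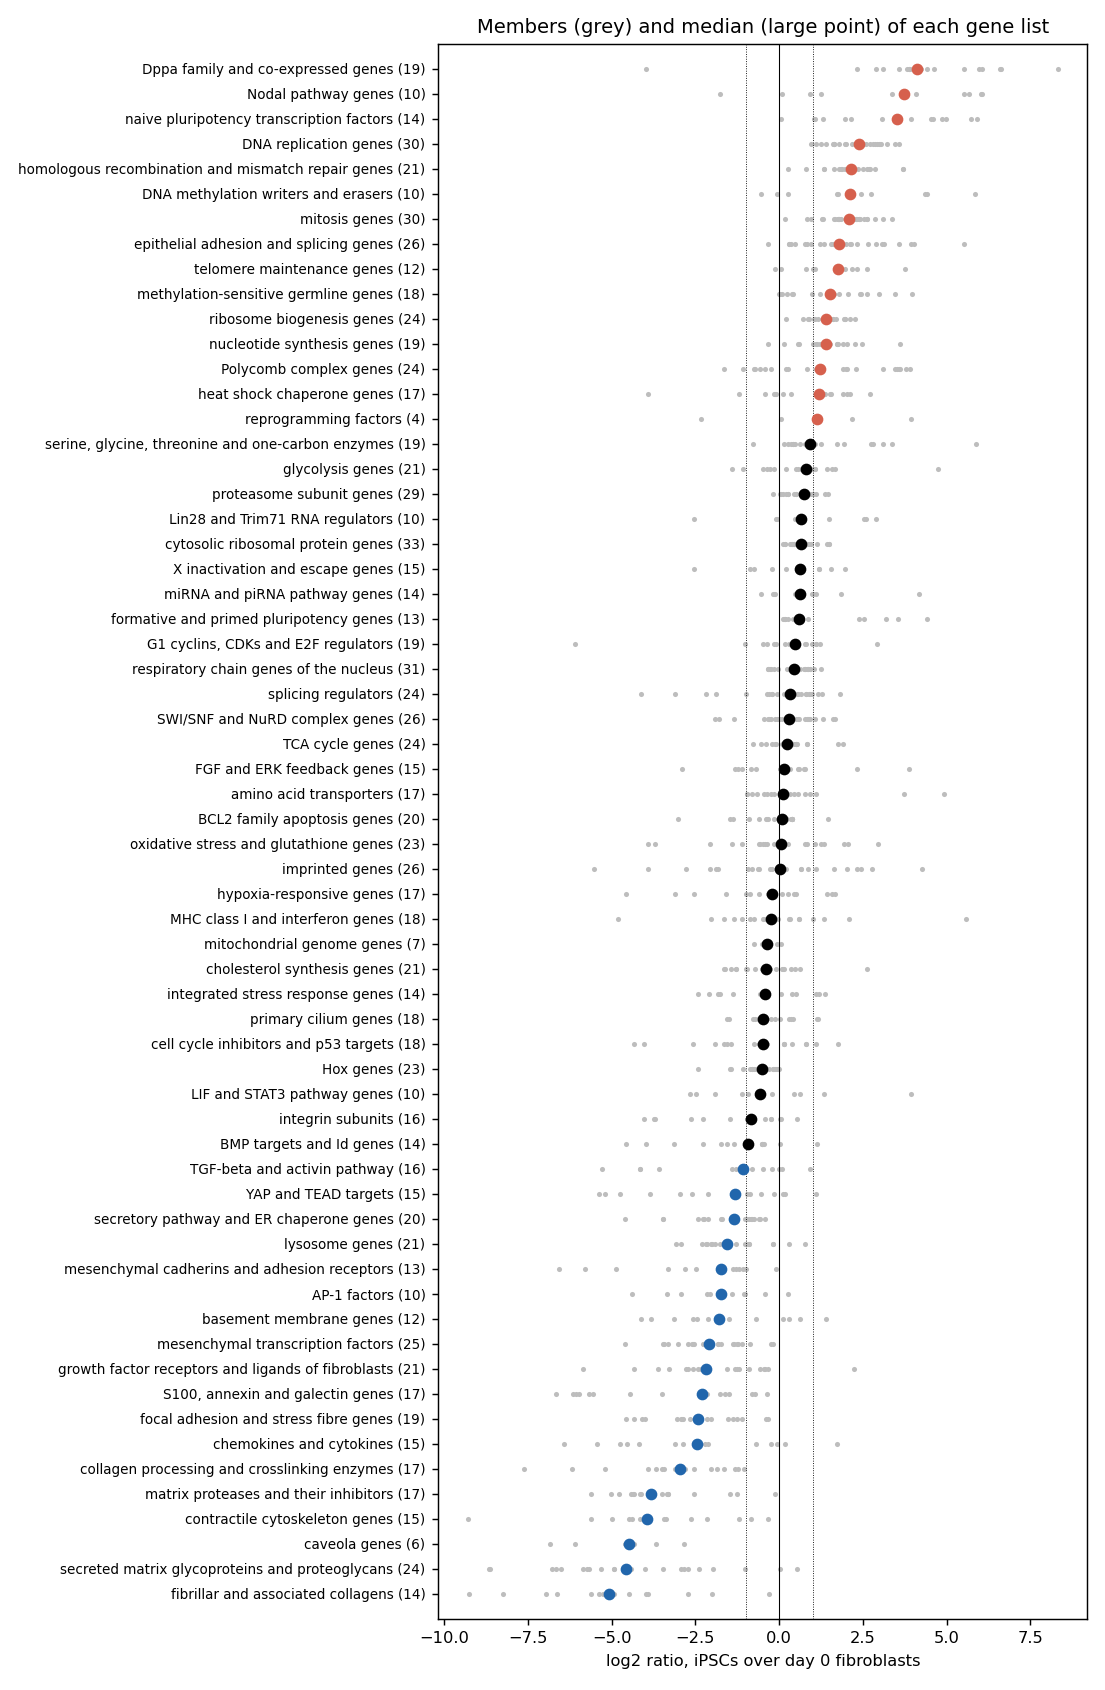
Median log2 ratio of iPSC over day 0 for each of the 62 gene lists (large points) and ratios of their members (grey), with the number of members in brackets and dotted lines at 2-fold. In all, 15 lists had a median of at least 1, 18 one of -1 or less and 29 one between, with collagens (-5.09) lowest and the Dppa family list (4.12) highest. The lists were chosen with earlier results of these data known.

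The pluripotency side opened with the transcription factors of the naive state. Here 13 of 14 were past 2-fold on the higher side (median 3.51). Mybl2, a cell cycle factor, was read in all 90 iPSCs at a median of 46.2 and in 12 fibroblasts, the zinc finger gene Zscan10 in 89 iPSCs at a median of 32.7, and Tfcp2l1, a target of LIF signals, in 74 iPSCs at a mean of 15.7. Nr0b1 on the X chromosome was read in 65 iPSCs at 0 to 174.5 (median 8.47) and in no fibroblast, and Prdm14 in 30. Klf4 was the exception, at means of 2.30 and 2.18 with reads in 39 iPSCs and 44 fibroblasts. Among the other reprogramming factors Sox2 was read in 75 iPSCs (median 3.06) and 1 fibroblast, and Myc was lower (median 4.17 and 31).

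Of 19 genes in the list of the Dppa family and co-expressed genes 18 were higher (median 4.12), and 7 of them did not overlap. This list was chosen with earlier results of these data known, so its high values are a description and not independent support. Tex19.1, a gene that restrains retrotransposons, was read in 89 iPSCs at a median of 52.4 and in 1 fibroblast at 0.489. Mkrn1 (83.3 and 6.02), a ubiquitin ligase gene, and Trim28 (76.8 and 14.7), which silences retrotransposons, were higher from a level already present at day 0. Spp1, the secreted phosphoprotein osteopontin, was lower, at a median of 24.3 in iPSCs and 204.3 at day 0, where 1 cell at 9632 held 22.2% of the summed level.

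Genes of the formative and primed states were read in part of the iPSCs. Of 13 genes 5 were higher and 8 within 2-fold (median 0.60). Otx2, which directs exit from the naive state, was read in 60 of 90 iPSCs (66.67%, exact 95% binomial interval 55.95 to 76.26, for counting error only) and in no fibroblast, and Fgf5 in 34 iPSCs at up to 39. Dnmt3b, a de novo methyltransferase gene that is also in the DNA methylation list, was at 24.3 and 0.179. T, the mesoderm factor Brachyury, was read in 12 iPSCs at a mean of 0.335, and Zic2, Sox3 and Foxd3 had means under 1.

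Nodal signalling genes were read with their own inhibitors. Of 10 pathway genes 7 were higher, 1 lower and 2 within 2-fold (median 3.73). The ligand gene Nodal was read in 80 iPSCs at up to 65.3 (median 13.9), the inhibitor genes Lefty1 and Lefty2 in 85 and 87 at up to 656.9 and 209.2, and the pathway factor Foxh1 in 83 at up to 31. None of these had a read at day 0. Furin, a protease that processes such ligands, was lower (0.463 and 4.01), and its relative Pcsk6 higher (1.95 and 0.241).

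The LIF arm ran the other way in its transducers. Il6st, the receptor subunit gp130, was at 4.25 in iPSCs and 18.6 at day 0, Jak1 at 3.64 and 28.5 and Stat3 at 4.07 and 27.1. The receptor gene Lifr was at 0.874 and 1.18, and Pim3, a kinase gene downstream, was higher (15.2 and 5.37) with the target gene Tfcp2l1 (15.7 and 0.0859), which left 2 genes higher, 4 lower and 4 within 2-fold of 10 (median -0.57). Of 15 FGF and ERK feedback genes 2 were higher and 4 lower (median 0.15), with Fgf4, the ligand that stem cells make themselves, at 13.7 and no read at day 0, Etv5 at 10.1 and 1.21, and Dusp5 at 2.66 and 26.3, Fgfr1 at 5.86 and 16.3 and Fgfr2 at 2.08 and 6.205. Of 14 BMP and Id genes 7 were lower and 1 higher (median -0.94), with Id1 at 2.95 and 60.9 Id3 at 17.6 and 163.6, the BMP antagonist gene Grem1 at 0.0822 and 24.8, and Bmp7 at 1.21 and 0.0017. The medians of these lists lay within 2-fold of even.

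Of the 10 RNA regulators around Lin28 and Trim71 4 were higher and 1 lower (median 0.66). Lin28a, which blocks maturation of let-7 microRNAs, was read in 77 iPSCs and no fibroblast, and Igf2bp1 in all 90 at 27.6 against 2.83. Hmga2, a chromatin protein gene under let-7 control in mammals, was lower (0.585 and 8.30). Epithelial genes were higher for 18 of 26 (median 1.79). Those not in the cell-cell junction core included Spint2 (20.8 in all 90 iPSCs, 1.48 in 23 fibroblasts), a protease inhibitor gene, Grhl2 (5.24 in 55 iPSCs, no read at day 0), a factor of epithelial identity, and the splicing factor gene Esrp1 (4.05 in 58 iPSCs). Cldn6 varied from 0 to 97.6 with reads in 60 iPSCs, Cldn4 had a mean of 14.5 and Epcam, an adhesion molecule of epithelia, one of 45.3. Of 13 mesenchymal cadherins and adhesion receptors 11 were lower (median -1.73), with Cdh11 at 0.0461 and 56.8 and Cd44 at 0.224 and 35.1, while Pdpn was at 1.39 and 1.54 with reads in 65 iPSCs and 60 fibroblasts.

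Chromatin regulators differed by complex. Of 10 DNA methylation writers and erasers 7 were higher and none lower (median 2.10). Dnmt3l, the cofactor of de novo methylation, was read in 86 iPSCs at a median of 64.8 and in 3 fibroblasts, and Uhrf1, which guides maintenance methylation, in 85 iPSCs at 16.4 and 28 fibroblasts at 2.20. Tet1 was at 26.96 and 0.356, while Tet3 went slightly the other way (0.717 and 1.48). Of 24 Polycomb genes 14 were higher and 2 lower (median 1.21), and the paralogues differed. Phc1 was at 34 in iPSCs and 1.91 at day 0, and Phc2 at 0.815 and 4.66. Cbx7 was read in 88 iPSCs and 3 fibroblasts (11.4 and 0.122). L3mbtl2, of the same variant complex as Pcgf6, was at 26.1 and 1.21. Pcgf6 was at 21.6 and 1.66, and Bmi1, also known as Pcgf4, at 0.282 and 1.69. Mtf2 (37.2 and 1.75), Epop (14.8 and 0.0601) and Jarid2 (21.3 and 0.959), partners of the enzyme complex PRC2, were higher with the core genes Ezh2 (8.19 and 1.43), Eed (31.7 and 5.6) and Suz12 (8.35 and 1.28).

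Of 26 SWI/SNF and NuRD genes 4 were higher, 3 lower and 19 within 2-fold (median 0.29). The paralogues of the ATPase and core positions differed here too, with Smarca4 at 19.13 and 14.6, Smarca2 at 0.596 and 3.07, Smarcc1 at 23.7 and 13 and Smarcc2 at 0.527 and 4.32, and in NuRD Mta3 was at 13.4 and 3.58 and Chd3 at 0.691 and 5.40. Of 12 telomere genes 9 were higher and 3 within 2-fold (median 1.75), with Rif1 at 43.4 and 2.26, and Dkc1, the X-linked dyskerin gene, at 72.7 and 11, with its partner Nhp2 at 85.25 and 16.04. Tert, the reverse transcriptase, was read in 21 iPSCs and 6 fibroblasts (1.41 and 0.393).

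Germline genes of the kind that promoter methylation silences in somatic cells were read in iPSCs. Of 18 genes 11 passed 2-fold on the higher side and 7 lay between (median 1.53), and 13 had no read at day 0. Hormad1, a meiotic chromosome axis gene, was read in 76 of 90 iPSCs (84.44%, exact interval 75.28 to 91.23) at 0 to 59.97 (median 11). Fkbp6, needed for piRNA production in the germline, was read in 66 iPSCs at up to 81.5 and in 1 fibroblast at 21.4. Dazl, an RNA-binding gene of germ cells, was read in 43 iPSCs, Stk31 in 48, the vasa homologue Ddx4 in 36 and the synaptonemal complex genes Sycp1 and Sycp3 in 38 and 59. These last genes had no read in any fibroblast. Tdrd12, a piRNA pathway gene counted in another list, was read in 80 iPSCs at up to 65.01 and in no fibroblast. Tdrkh (0.440 and 0.425) and Brdt (0.0888 and 0.0995) had reads in both groups at like means.

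Promoters of 12 of these germline genes shared a short run of letters, and 3 of them are shown as examples, picked after their values were seen. Each gene had reads in 48 or more iPSCs and in at most 1 fibroblast, as did Sycp3, whose promoter also holds the run. The windows are the 250 bases before the first listed start, from RefSeq on GRCm38.p6, 5′ to 3′ on the strand of the gene, with the E-box CACGTG in capitals. Hormad1 lies at chr3:95559427-95559676 on the plus strand, Fkbp6 at chr5:135350045-135350294 on the minus strand and Stk31 at chr6:49395289-49395538 on the plus strand. No base of these windows lies inside the GENCODE model of the gene itself, and overlap with other genes was not checked.
Hormad1: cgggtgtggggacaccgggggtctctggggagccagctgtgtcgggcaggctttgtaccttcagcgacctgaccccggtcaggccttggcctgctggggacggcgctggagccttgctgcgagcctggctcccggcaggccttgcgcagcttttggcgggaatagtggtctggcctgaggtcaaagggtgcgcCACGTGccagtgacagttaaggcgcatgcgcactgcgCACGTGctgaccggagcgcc
Fkbp6: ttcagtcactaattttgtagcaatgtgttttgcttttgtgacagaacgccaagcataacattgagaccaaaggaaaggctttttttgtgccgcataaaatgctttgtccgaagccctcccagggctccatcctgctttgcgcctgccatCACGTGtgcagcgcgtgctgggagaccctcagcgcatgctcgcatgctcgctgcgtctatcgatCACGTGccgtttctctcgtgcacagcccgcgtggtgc
Stk31: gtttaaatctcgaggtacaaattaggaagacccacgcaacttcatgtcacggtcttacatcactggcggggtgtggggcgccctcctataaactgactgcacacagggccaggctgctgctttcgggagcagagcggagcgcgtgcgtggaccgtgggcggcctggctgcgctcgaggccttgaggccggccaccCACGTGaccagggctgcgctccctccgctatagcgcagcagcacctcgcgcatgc

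Of 18 germline promoters 12 (66.7%) held CACGTG, which reads the same on both strands, against 6.05% of 27025 promoters of the same length. Among the 10540 promoters with 8 to 31 CpG dinucleotides, the range of the germline promoters, 9.21% held it. The median was 17 CpGs in germline promoters and 6 over all. The run begins 57 and 20 bases before the start in Hormad1, 101 and 37 in Fkbp6 and 55 in Stk31. Holding it did not always go with a higher ratio. Brdt (-0.01), Tdrd1 (0.23) and Mov10l1 (0.99) held it within 2-fold, and Dazl (2.99) and Rpl10l (2.63) were higher without it. The other holders were higher, and the other germline genes without it were within 2-fold. Lysosome promoters held CACGTG in 6 of 17 with a window (35.3%), against 6.92% at their CpG range. Of these holders Lamp1 (-1.55), Ctsd (-2.19) and Ctsl (-2.31) were 2-fold lower in iPSCs. Gla (0.29), Glb1 (-0.18) and Atp6v1a (-0.90) held it and were within 2-fold. Lamp2 (-3.09) and Cd63 (-2.93), the lowest of the list, did not hold it. CACGTG was chosen for display out of 15 runs after the shares had been seen, and a match is a description and not a binding site.

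Cell cycle genes differed between the plates in how many cells held them, though the cells overlapped. Of 30 DNA replication genes 29 were 2-fold or more higher in iPSCs (median 2.37), and of 30 mitosis genes 27 (median 2.09). Every iPSC had reads of at least 23 of 30 replication genes and of at least 22 of 30 mitosis genes. Day 0 cells had reads of 3 to 29 replication genes (median 11) and 1 to 30 mitosis genes (median 6). Of 86 fibroblasts 18 had at least 20 mitosis genes and 39 had at most 5, limits set after the values had been seen. Summed over the mitosis list, iPSCs lay at 445.4 to 1198 and day 0 cells at 1.53 to 1147, and 11 fibroblasts passed the lowest iPSC.

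Single genes had that shape. Top2a, the topoisomerase that untangles chromosomes, spanned 1.24 to 126.3 in iPSCs (median 54.9), and at day 0 had no read in 55 cells and 145.1 in the highest. Cdc20, an activator of the anaphase complex, spanned 24.99 to 184.9 (median 75.9) and 0 to 171.9 (median 0.928). Mcm10 (18.6 and 0.791), Rpa2 (53.9 and 3.63) and Cdt1 (28.4 and 2.15), which load or protect replication forks, had the widest ratios of the replication list. In the mitosis list Aurka (47.6 and 3.66), the spindle pole kinase gene, Ccnb1 (25.8 and 2.12), cyclin B1, and Cenpf (15.5 and 1.27) had the widest. Among G1 regulators only 4 of 19 were higher and 2 lower (median 0.48): Ccne1 was at 65.1 and 7.68, Ccnd2 at 0.454 and 97.4, Ccnd1 at 28 and 24.9, Ccnd3 at 34.1 and 19, E2f4 at 14.5 and 5.67, and Cdk6 at 2.4 and 5.85. Of the D-type cyclins only Ccnd2 was past 2-fold, and it was one of the genes without overlap, while Ccnd1 and Ccnd3 were within 2-fold.

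As examples picked in the same way, cell cycle promoters are shown for Top2a, Mcm3 and Aurka, each read in at least 89 iPSCs, with every CCAAT box in capitals, written ATTGG where it lies on the other strand. The windows are chr11:99024190-99024439 for Top2a, chr1:20820313-20820562 for Mcm3 and chr2:172370571-172370820 for Aurka, all on the minus strand. Source, build and length are as above. Each window lies outside the GENCODE model of its own gene, and other genes were again not checked.
Top2a: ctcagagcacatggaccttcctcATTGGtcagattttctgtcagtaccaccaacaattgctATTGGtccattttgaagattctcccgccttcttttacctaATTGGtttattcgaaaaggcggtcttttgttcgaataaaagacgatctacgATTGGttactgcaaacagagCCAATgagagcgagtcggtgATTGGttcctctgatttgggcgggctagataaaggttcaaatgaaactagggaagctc
Mcm3: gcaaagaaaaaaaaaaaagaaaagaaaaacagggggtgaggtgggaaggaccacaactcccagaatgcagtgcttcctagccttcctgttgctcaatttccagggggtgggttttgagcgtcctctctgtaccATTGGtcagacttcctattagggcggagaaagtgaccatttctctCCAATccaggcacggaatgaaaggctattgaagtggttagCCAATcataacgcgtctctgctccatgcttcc
Aurka: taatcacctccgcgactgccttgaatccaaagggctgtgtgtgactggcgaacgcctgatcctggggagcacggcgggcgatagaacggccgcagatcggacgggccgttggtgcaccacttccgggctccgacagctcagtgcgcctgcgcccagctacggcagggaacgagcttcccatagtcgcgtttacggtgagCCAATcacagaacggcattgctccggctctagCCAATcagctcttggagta

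CCAAT on either strand was held by 20 of 24 mitosis promoters with a window (83.3%) and 16 of 24 replication promoters (66.7%), against 34.5% of all promoters. At the CpG ranges of the lists the shares of all promoters were 36% and 35.5%. The Sp1 run GGGCGG was also more frequent, in 17 of 24 mitosis (70.8%) and 15 of 24 replication promoters (62.5%) against 32.9% of all. Germline (55.6%) and lysosome promoters (47.1%) held it more often than all promoters too. The E2F run GCGCGAA was in 4 of 24 replication promoters (16.7%) and 1 of 24 mitosis promoters (4.17%), against 1.29% of all. TTTGAA was in 9 of 24 mitosis promoters (37.5%) and 4 of 24 replication promoters (16.7%), against 16.3% of all. GGGCGG and GCGCGAA contain CpGs, and their shares at the CpG ranges of the lists were not computed. Shares of the remaining runs in these 2 lists are not reported here. CCAAT was likewise chosen for display out of 15 runs after the shares had been seen. Top2a held 6 copies, Mcm3 3 and Aurka 2. The promoters of the other 6 genes of each list were not in the table.

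Genes that repair DNA during replication stood with them. Of 21 homologous recombination and mismatch repair genes 19 were higher and 2 within 2-fold (median 2.14), with the mismatch recognition gene Msh6 at 48.1 and 2.82. Pms2 (3.87 and 1.79) and Fanca (1.28 and 0.887) lay within 2-fold. Ribosome biogenesis genes were higher for 20 of 24 (median 1.41), such as Nolc1 (71.8 and 14.1), Polr1b (14.65 and 2.60), Rrp9 (40.2 and 9.55) and Ncl (268 and 69.8). Ribosomal protein genes were higher for only 4 of 33 (median 0.64) and proteasome genes for 4 of 29 (median 0.74), and under the median-ratio scaling these medians were 0.38 and 0.46. The widest were Rpl10 (7.11 and 1.88), Rpl27 (11.4 and 3.59) and Rpl3 (5.67 and 1.36), which have many processed copies in the genome that can share reads, and Psmd12 (71.8 and 25.7), Psma1 (71.9 and 27.4) and Psma6 (69.95 and 32.1).

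Metabolic genes were uneven. Of 19 nucleotide synthesis genes 15 were higher (median 1.40): Prps1, an X-linked gene for a shared precursor of nucleotides, was at 119.4 and 8.84, Gart at 49.3 and 9.44 and Ppat at 31 and 4.74. Of 19 serine, glycine, threonine and one-carbon genes 9 were higher and 10 within 2-fold (median 0.93). Tdh, threonine dehydrogenase, which mouse stem cells use to feed one-carbon metabolism, was read in 87 iPSCs at a median of 49 and in no fibroblast. Its partner Gcat was at 17.6 and 4.58, the glycine cleavage genes Gldc and Amt at 5.67 and 11.3 against 0.0034 and 0.181, and Shmt1 at 34.7 and 3.20, whereas Shmt2 was at 43.1 and 36. The mitochondrial and cytosolic enzymes of the same step thus differed.

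Glycolysis genes were higher for 7 of 21 and lower for 2 (median 0.80). Slc2a3, a high-affinity glucose transporter gene, was read in 80 iPSCs (median 26.7) and 7 fibroblasts, while Slc2a1 was at 39.8 and 27.7, and Eno3 (1.93 and 6.77) and Hk1 (2.43 and 6.28) were lower. Pdk1, a brake on pyruvate entry into the TCA cycle, was at 4.61 and 0.749, and Pgk1, on the X chromosome, at 3.17 and 0.408. TCA cycle genes were within 2-fold for 22 of 24 (median 0.23, and 0.00 under median-ratio scaling), with the exceptions Idh3g on the X chromosome (76.8 and 19.6) and Pdhb (41.9 and 11.7). Pdha1, X-linked, was at 53.4 and 29.8. Nuclear respiratory chain genes were within 2-fold for 29 of 31 (median 0.45), with Cyc1 (70.7 and 29.4) and Atp5a1 (222.6 and 106.9) past it and Ndufa1 at 17.5 and 8.69, and the 7 genes of the mitochondrial genome for all 7 (median -0.37), from mt-Nd6 (11.8 and 20.6) and mt-Nd5 (129.8 and 183.7) to mt-Cytb (612.4 and 792.4). Within 2-fold lay also 19834 of all 24313 genes, and 1787 of the 2568 whose mean was 5 or more in both groups.

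Of 21 cholesterol synthesis genes 5 were lower and 1 higher (median -0.40). The higher gene, Ebp, is on the X chromosome (41.2 and 5.88), and Msmo1 (14 and 45.3) and Sc5d (3.1 and 11.9) were lower. Amino acid transporters were within 2-fold for 14 of 17 (median 0.11), but Slc7a3 (116.4 and 2.87), an X-linked arginine and lysine transporter gene, and Slc7a7 (20.1 and 0.603) were wide apart, and Slc43a1 was at 3.39 and 1.04. Oxidative stress genes went both ways (6 higher, 5 lower, 12 within, median 0.06), with Gsta4 at 91.3 and 11, Sod2 at 54.6 and 12.3, Hmox1 at 14.5 and 63.6, Gpx8 at 0.757 and 25.3 and Gsto1 at 9.51 and 136.9. Such shares were near those of genes whose mean reached 5 in either group (28.8% higher, 25.1% lower). The medians of the last 2 lists turn negative under the median-ratio scaling, as do those of the imprinted and BCL2 family lists.

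Of 17 heat shock chaperone genes 9 were higher and 2 lower (median 1.18, and 0.89 under median-ratio scaling). Hsp90aa1 was at 51.6 to 220.2 in iPSCs (median 117.6) and 4.83 to 53.9 at day 0 (median 16.3), a near separation, Hsph1 at 51.1 and 11.9 and Hspa14 at 40.1 and 8.497, while Cryab (0.207 and 17.4) and Bag3 (5.01 and 12.8) were lower. Of 14 integrated stress response genes 3 were higher and 5 lower (median -0.42), with Atf5 at 0.256 and 4.41, Vldlr at 0.0055 and 2.60, Nupr1 at 4.74 and 30.1, and the effector gene Atf4 at 30.7 and 23.3, and Ddit4 (4.01 and 0.949), Chac1 (4.73 and 1.53) and Sesn2 were the higher ones. Of 17 hypoxia-responsive genes 3 were higher and 4 lower (median -0.22). Adm, a vasodilator peptide gene, was at 0.0656 and 24.4, the collagen hydroxylase genes P4ha2 and P4ha1 at 1.13 and 17.4 and at 4.05 and 28.5. Egln3 was at 2.98 and 0.327 and Epas1 at 3.36 and 0.627.

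Splicing regulators were within 2-fold for 17 of 24 (median 0.33), but Mbnl1 (0.618 and 12.8), Mbnl2 (0.529 and 25.9) and Rbfox2 (1.67 and 11.1), which favour splice patterns of differentiated cells, were lower with Celf2, and Srsf7 (94 and 26.1), Tra2b and Srsf2 were higher. Of 20 BCL2 family genes 16 were within 2-fold (median 0.08), with Bcl2l1 (4.46 and 14.03) and Bad (2.14 and 7.16) lower. Casp8, the initiator caspase of death receptors, was at 0.0437 in 2 iPSCs and 7.45 in 64 fibroblasts, and Pmaip1, the p53 target Noxa, was higher (13.1 and 4.15). Of 14 miRNA and piRNA pathway genes 4 were higher and none lower (median 0.61), among them Piwil2 (2.56, no read at day 0) and Tarbp2 (5.66 and 2.08).

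Imprinted genes split evenly: 7 of 26 were higher, 6 lower and 13 within 2-fold (median 0.02). These shares were near those of genes whose mean reached 5 in either group, 28.8% higher and 25.1% lower. Over all genes compared the shares were 9.6% and 8.83%. H19 and Igf2, neighbours on chromosome 7, were both lower (0.842 and 83.9, 0.0542 and 6.27), as was Grb10 (1.30 and 33.5). Snrpn (84.6 and 3.42), Peg3 (38.5 and 8.76), Zdbf2 (7.69 and 0.275) and Phlda2 (5.31 and 0.155) were higher. Snrpn was read in all 90 iPSCs at 9.07 to 218.2 and at day 0 at up to 12.1.

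Switching on or off was described by shares of cells. A gene is called switched on where at least 50% of iPSCs and at most 5% of day 0 cells had reads, and switched off in the reverse case. This held for 340 genes (1.4%) and 226 genes (0.93%). Of the genes switched on 174 had no read at day 0 and 12 had reads in all iPSCs, and of those switched off 63 had no read in iPSCs and 14 had reads in all day 0 cells. Long intergenic RNAs made up 18 and 2, against 904 of the 24313 genes compared. Pseudogenes of all kinds made up 29 and 3, where processed pseudogenes alone were 3708 of the genes compared. Pseudogenes were thus a smaller share of both sets than of all genes. Per cell, 114 to 298 of the 340 genes were read in iPSCs (median 257) and 0 to 14 in fibroblasts, and of the 226 genes 0 to 30 in iPSCs (median 3) and 96 to 202 in fibroblasts (median 163). No cell lay between the groups in these numbers, which come from the cells that chose the genes. With every cell thinned to 100000 reads, 251 of the 340 and 196 of the 226 kept the call.

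**Figure D4:**
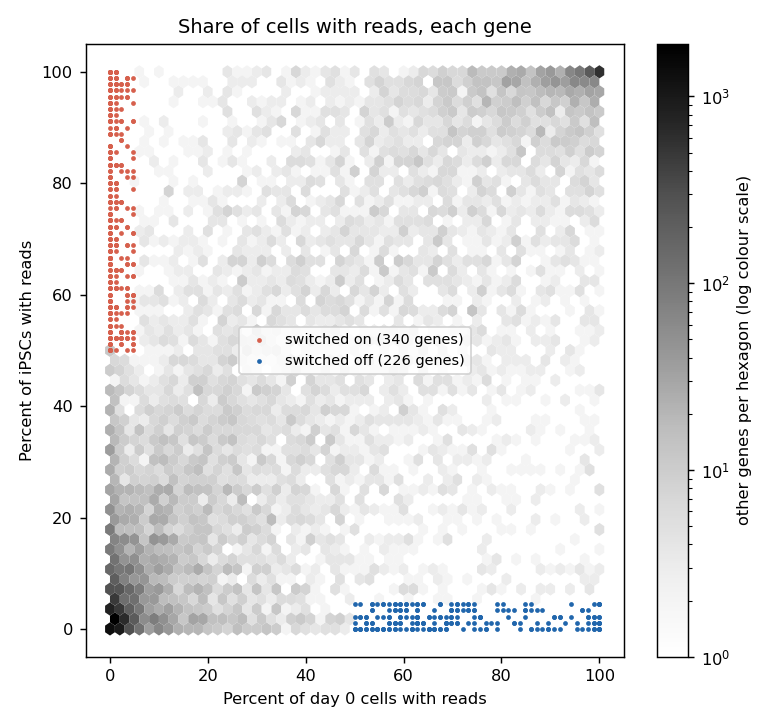
Percent of day 0 cells (x axis) and of iPSCs (y axis) with reads of each gene, other genes binned in hexagons whose grey gives their number on a log scale. The 340 genes in the upper left corner are those switched on and the 226 in the lower right those switched off, and 498 genes were read in every cell of both plates.

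Most switched genes were in no fixed list: 55 of the 340 and 61 of the 226 were. The lists with the most switched-on members were the Dppa family list (14 of 19), epithelial genes (8 of 26), naive factors (7 of 14), Nodal genes (6 of 10) and germline genes (5 of 18). Among those switched off, collagens had 10 of 14, secreted matrix and mesenchymal factors 9 of 24 and 9 of 25, and matrix proteases and chemokines 5 of 17 and 5 of 15. Since the lists were chosen with earlier results of these data known, such counts only describe them. Genes outside the lists, picked after their values were seen, included Mycn (56.03 in 86 iPSCs, 0.136 in 3 fibroblasts), a Myc family gene of embryonic cells. Trh, the precursor of thyrotropin-releasing hormone, was read in 69 iPSCs (mean 49.6) and in no fibroblast, and Alpl, the alkaline phosphatase used to stain pluripotent colonies, in 86 and 2. Myc and Mycn thus differed in opposite directions. Among the genes switched off, Ptgs2, the inducible prostaglandin synthase, was at 63.8 in 75 fibroblasts and 0.0449 in 3 iPSCs, and Mgp, an inhibitor of calcification, at 34.4 in 75 fibroblasts and in no iPSC.

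Among genes with more reads, the X chromosome had a higher median ratio than any autosome. Taking genes whose mean reached 5 in either group, the median log2 ratio was 0.99 for 204 X-linked genes and 0.23 for 4932 autosomal ones, and no autosome passed 0.60 (chromosome 17). Of the X-linked genes 156 of 204 had a ratio above 0, 49% were at least 2-fold higher and 15.7% at least 2-fold lower, against 28.1% and 25.6% of autosomal genes. Where the mean reached 5 in both groups, the medians were 0.70 for 92 X-linked and 0.25 for 2447 autosomal genes, a difference of 0.44, with quartiles of 0.17 and 1.19 for the first and of -0.38 and 0.84 for the second. Under the median-ratio scaling the first pair of medians was 0.72 and -0.04. Over all compared genes, most of them low, the medians were close (0.02 for 1095 X-linked and 0.01 for 22245 autosomal genes), with 15.1% and 9.67% at least 2-fold higher and 4.57% and 9.35% lower. X-linked genes also made up 10.3% of the genes switched on and 2.65% of those switched off, against 4.5% of all genes compared.

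**Figure D5:**
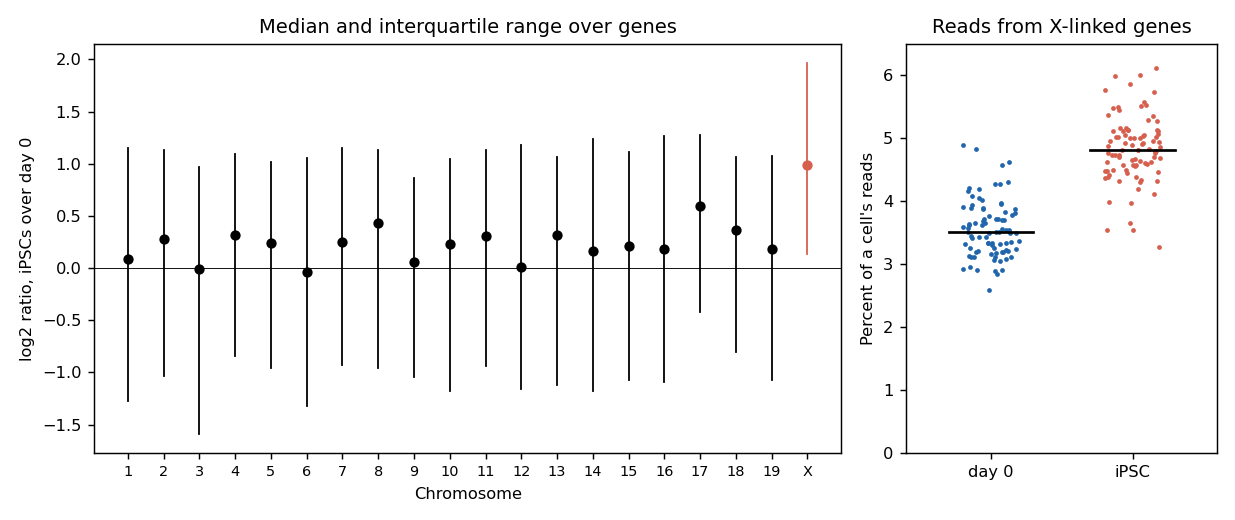
Median log2 ratio of iPSC over day 0 for genes of each chromosome whose mean reached 5 in either group (points), with lines from the lower to the upper quartile, and, on the right, the percent of each cell's reads from X-linked genes with bars at the medians. Chromosome X, at 0.99, lies above the autosomes, which run from -0.04 (chromosome 6) to 0.60 (chromosome 17), while the cells of the groups overlap (medians 4.82% and 3.51%).

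Per cell, X-linked genes took 3.27% to 6.11% of reads in iPSCs (median 4.82%) and 2.59% to 4.89% at day 0 (median 3.51%), so 40 iPSCs lay above all fibroblasts and 26 fibroblasts below all iPSCs. The files do not separate the alleles, so the share from the former inactive X was not measured here. Xist, the RNA that coats the inactive X, was read in 77 of 86 fibroblasts at up to 70.8 (median 13.4) and in 33 of 90 iPSCs at up to 40.4, and 1 iPSC held 26.5% of the summed iPSC level. Tsix, its antisense gene, was read in 40 iPSCs and 2 fibroblasts at means of 0.539 and 0.0065. Smart-seq2 does not mark strand, so reads where Xist and Tsix overlap cannot be told apart. Of 15 X inactivation and escape genes 4 were higher, 1 lower and 10 within 2-fold (median 0.61), with Utp14a (17.9 and 3.82) and Pbdc1 (49.2 and 15.99) widest on the higher side. Escape genes were not alike. Kdm6a (4.08 and 2.15), Kdm5c (6.34 and 4.03) and Ddx3x (28.8 and 17.4) were within 2-fold. The facultative escape gene 1810030O07Rik was higher (ratio 1.18, and 0.93 under median-ratio scaling).

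Genes differed in how evenly cells held them. Over genes whose mean reached 10 and that were read in at least 50% of cells, the median coefficient of variation over cells was 0.558 in iPSCs (2250 genes) and 0.66 at day 0 (2015 genes). Slc34a2, a phosphate transporter gene, had the widest spread in both plates (3.08 and 3.48), and 1 cell held 29.4% and 37.1% of its summed level. In iPSCs Hes6 (2.04), Dppa3 (1.85), Egr1 (1.78) and Pim2 (1.76) followed: Dppa3, a maternal factor gene that marks part of naive cultures, ran from 0 to 272.1 with a median of 8.16. At day 0 Gpc3 (2.62), Mest (2.4), Spp1 (2.31) and Itm2a (2.26) came next, with Mest, an imprinted gene of mesoderm, at 0 to 1037 and a median of 11.9. The cell cycle gene Cdc20 was also among the uneven genes of day 0 (2.22). These genes were picked by their spread after it had been seen.

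Markers of other cell types were looked at in both plates. One iPSC held 9 of 10 blood and macrophage markers, with a summed level of 1627 against 36.1 in the next iPSC and at most 22.1 at day 0. It had Lyz2, the lysozyme gene of macrophages, at 1356 (15 day 0 cells had Lyz2 reads, at up to 22.1), Fcer1g at 74.3, Tyrobp at 44.5 and the complement genes C1qa and C1qb at 38.5 and 39, and no other iPSC had a read of Lyz2, Tyrobp or C1qb. The same cell had 764536 reads, 9064 genes, a pluripotency marker sum of 492.2, Dppa5a at 199.6 and the only Cav1 reads among iPSCs (24.5). Without it 2331 genes were higher and 2155 lower, 331 were switched on and 228 off, and 15 and 31 genes did not overlap, with B2m added to the lower ones.

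Sums of other markers varied more between cells. Of 10 trophoblast markers 3 were higher and 1 lower, with Tfap2c at 8.59 in 60 iPSCs and Ascl2 at 4.05, neither read at day 0, Gata3 at no read in iPSCs and 3.22 at day 0, and Elf5 in 2 iPSCs. The primitive endoderm markers Gata4, Sox17 and Foxa2 were read in 4, 2 and 1 iPSCs, Gata6 in 1, and the sums of that list ran to 29.04 in iPSCs and 154.3 at day 0, where Dab2 (26.1) and Pdgfra are fibroblast genes too. Of 8 neural markers 2 were higher and 3 lower: Stmn2 was at 22.3 in 87 iPSCs and Tubb3 at 11 in 75, Ncam1 (1.10 and 10.9), Nes (1.37 and 7.14) and Map2 (0.435 and 3.90) were lower, while Sox1 was read in 1 iPSC. Of 6 keratinocyte markers 1 was higher, Krt17, at 3.40 in 26 iPSCs. Among muscle and endothelial markers 1 of each list was higher, Ttn (4.09 in 42 iPSCs) and Egfl7 (4.32 in 80). Among 8 adipocyte and cartilage markers 4 were lower, with Col2a1 at 18.7 in 27 fibroblasts and 0.895 in 26 iPSCs. That list summed to at most 11.1 in iPSCs and to 691.4 in the highest fibroblast (median 3.02), where Col2a1 alone reached 665, above the lowest fibroblast marker sum of 504.2. The neural list ran to 101.9 in iPSCs (median 34.8) and 87.4 at day 0 (median 20.8), and the keratinocyte list to 107.2 and 4.51. The part of these cells in the differences above was not tested, apart from the iPSC left out.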

How the data were processed

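The authors aligned single-end Smart-seq2 reads to mm10 with STAR 2.5.3a, counted reads per gene with featureCounts on a GENCODE annotation, and kept cells with over 4000 and under 10000 genes and under 8% mitochondrial reads. No cell of the table lay outside these limits. In the deposited table each value is the natural log of 1 plus reads per 10000 gene-assigned reads of each cell (the methods name a scale of 100000, the values sum to 10000). From it whole reads were recovered for 1271433 of 1271433 values, within 0.01 reads or a relative tolerance of 1e-06. Linear values per 100000 reads were averaged over the cells of a plate and compared as log2 ratios with a pseudocount of 1. Shares of cells have exact binomial intervals of 95%, for counting error only. A gene at no read in a group was bounded by a floor of 3 reads over that group. Count models were not used, since each group was 1 plate. Doublets were not called.

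The 2 groups and the 73 gene lists (62 described, 11 of markers) were chosen with earlier results of these data known. Genes named were the 10 highest and 10 lowest ratios among genes whose mean reached 10, with reads in at least 50% of cells of the higher group, the 10 widest gaps in each direction, the 10 smallest ratios among genes whose mean reached 50 in both groups, and, per list, the 3 largest ratios, up to 3 against the median and members whose role is described. Some genes that this rule names are not reported here. Overlapping and near-identical genes can share reads. Chromosomes came from a GENCODE annotation of GRCm38 matched by symbol. Promoters were the RefSeq windows on GRCm38.p6, searched on both strands in 4 lists for 15 runs, namely the E-box CACGTG, the CCAAT box CCAAT, the TATA run TATAAA, the cell cycle runs TTTGAA or TTCGAA, also TTTAAA, the Sp1 run GGGCGG, the AP-1 run TGANTCA, the TEAD run GGAATG, the E2F runs TTCCCGCC plus GCGCGAA, the octamer ATTTGCAT, the run CTTTCC, and TGACGTCA, which lies inside the also searched ATGACGTCA. The windows matched 18 of 18 germline, 17 of 21 lysosome, 24 of 30 replication and 24 of 30 mitosis genes. Alternatives were other pseudocounts, scaling, depth limits, thinning, pooling of reads, wells and thresholds, and, chosen after seeing the data, leaving out 1 iPSC. Analyses used Python 3.11.15, pandas 2.3.3, numpy 2.4.6 and scipy 1.17.1, and the ratio step was tested on simulated data.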

Additional observations from a re-analysis of the deposited data

How the results depend on the processing

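Counts depended on the pseudocount and on the filter for low values. The number of genes at least 2-fold higher was 4763 and of those lower 3895 with a pseudocount of 0.1, 455 and 506 with one of 10, and 1492 and 1301 with only genes of mean 5 or more in either group, against 2333 and 2146. Asking for reads in at least 90% of cells left 82 genes switched on and 40 off, and allowing at most 1 cell in the other group left 110 off. Comparing the third lowest with the third highest cell gave 59 genes without overlap on the higher side and 72 on the lower. Of the 62 lists, 33 had a median past 2-fold and 13 with a pseudocount of 10. Under median-ratio scaling the medians of heat shock genes (1.18 to 0.89) and reprogramming factors (1.12 to 0.91) dropped under 2-fold and that of BMP and Id genes (-0.94 to -1.08) passed it. All 33 kept their direction under every alternative run, and over 639 medians recomputed (lists, X-linked and autosomal genes) 557 moved by less than 1.5-fold, 82 by more and 0 of the called ones changed sign. Pooling reads, leaving out the highest cell of each gene, using only cells with at least 200000 reads, splitting the plates by wells and leaving out the iPSC with macrophage reads each kept the counts of 2-fold genes within 1.5 times. No replicate could be left out, since each group was 1 plate. No paired analysis was possible because replicate numbers only count the cells of a plate and tie no cells of the groups together. Depth limits the genes of low mean, where a ratio with a pseudocount of 1 stays near 0.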
